A study of Mus musculus with 10 samples.

Results

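Stra8, Dazl, Sohlh2, Smc1b, Mov10l1 and Rhox6 are 6 mouse genes normally expressed in germ cells. They are 6 of the 20494 lines of a deposited RNA-seq table, taken by symbol from its upper part, where symbols stand beside their own values. The genes were chosen by their TPM in these same 10 libraries, so their levels and differences are given below as a description, with no test. The table holds 10 libraries of an embryonic stem cell line, strain label C57BL6X129S6F1, with 2 libraries in each of 5 culture conditions. The stated aim of the series was to compare the expression of pluripotency genes, endogenous retroviruses and epigenetic regulators between culture conditions, under a title on genome stability.

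All 5 conditions held 1000 IU mLIF. SL was KO-DMEM with 15% FBS. The other conditions used serum-free N2B27 with Chir99021 at 3 µM, which blocks GSK3 kinase. In 2iL this was joined by 1 µM PD0325901, which inhibits the kinase MEK. In A2iL it was joined by 1.5 µM CGP77675, a Src kinase inhibitor, and in LCDM by 2 µM each of 2 compounds that the labels abbreviate to Dim and Mih. For 2iL-F the additions were those of 2iL. Feeder cells were present in SL, 2iL, A2iL and LCDM and absent in 2iL-F, according to the labels. The line is given no further name, and nothing says that the 2 libraries of a condition came from separate cultures, so spreads and p-values describe these libraries and may be technical.

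Values are TPM, a unit adjusted for transcript length and library total. It keeps no read number, and the sequencing depth is therefore unknown. The stem cell label was checked with 8 marker genes, of which 4 stood on usable lines. Their summed level was 1627 to 2784 TPM over the 10 libraries, and Pou5f1, the defining factor of these cells, had condition means of 1019 to 1363 TPM. The feeder labels were checked with 12 fibroblast markers, of which 11 stood on usable lines. They summed to 975 to 1025 TPM in SL, 1113 to 1155 in A2iL, 223 to 232 in LCDM and 2085 to 2178 in 2iL-F. The libraries labelled 2iL, described as grown on feeders, had 3.32 to 3.62 TPM, with 10 of the 11 markers below 1 TPM in each and the defining markers Dcn, Postn and Lox at 0 in both. The fibroblast RNA therefore goes against the feeder labels, and the names 2iL and 2iL-F stand below for libraries as labelled. In bulk RNA, fewer expressing cells and less RNA per cell cannot be told apart.

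As background, many genes of germ cells have CpG-containing promoters that are methylated in the early embryo and stay silent in body tissues. De novo methylation is laid down by Dnmt3a and Dnmt3b with their cofactor Dnmt3l and is kept through cell division by Dnmt1 with Uhrf1. A variant Polycomb complex, PRC1.6, which contains Mga, L3mbtl2 and Pcgf6 and recognises E-box and E2F sites, also represses such genes in embryonic stem cells. Medium with MEK and GSK3 inhibitors is known to lower DNA methylation in mouse embryonic stem cells. DNA methylation itself was not measured in these libraries.

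The promoter letters are shown because CpG sites are where such methylation would act. RefSeq's table for GRCm38.p6, the assembly of mm10, matched 5 of the 6 genes, all but Rhox6. The stretches printed come from the 250 bases before the RefSeq start, cut back to the part that lies in no exon annotated in GENCODE vM21. The RefSeq start of Stra8 lies 785 bases inside the gene as GENCODE annotates it, against 7 to 85 bases for the other 4, and its window lies in annotated exons throughout, so its letters are not shown and its values describe that window, not the upstream GENCODE start. The Dazl stretch is chr17:50293637-50293870 on the minus strand and the Sohlh2 stretch chr3:55181794-55182027 on the plus strand. The Smc1b stretch is chr15:85131965-85132077 on the minus strand, where the gene Ribc2 starts within 1000 bases on the other strand, and the Mov10l1 stretch is chr15:88982744-88982908 on the plus strand. All are written 5′ to 3′ on the gene's strand, with each CpG in capitals.
Dazl: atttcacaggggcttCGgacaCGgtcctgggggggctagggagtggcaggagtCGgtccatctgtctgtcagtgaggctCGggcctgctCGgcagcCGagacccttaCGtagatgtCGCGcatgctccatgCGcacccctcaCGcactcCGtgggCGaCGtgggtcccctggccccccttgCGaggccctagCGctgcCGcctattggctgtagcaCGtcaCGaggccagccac
Sohlh2: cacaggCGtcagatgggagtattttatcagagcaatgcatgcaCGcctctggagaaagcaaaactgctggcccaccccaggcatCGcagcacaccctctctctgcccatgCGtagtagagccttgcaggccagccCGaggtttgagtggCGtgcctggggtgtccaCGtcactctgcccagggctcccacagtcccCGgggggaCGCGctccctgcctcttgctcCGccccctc
Smc1b: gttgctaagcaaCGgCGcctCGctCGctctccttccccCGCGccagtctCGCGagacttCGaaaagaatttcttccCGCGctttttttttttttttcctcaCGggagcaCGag
Mov10l1: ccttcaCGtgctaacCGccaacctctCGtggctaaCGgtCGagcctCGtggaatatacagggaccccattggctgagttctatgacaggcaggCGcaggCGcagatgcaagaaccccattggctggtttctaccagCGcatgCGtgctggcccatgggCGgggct

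The CpG density of these promoters differed widely. In the whole window of 250 bases before to 50 after the start, the ratio of observed to expected CpG was 1.083 at Smc1b, with 29 CpG sites, 0.795 at Dazl with 28, 0.674 at Mov10l1 with 20, 0.545 at Sohlh2 with 17 and 0.43 at Stra8 with 10. Among 32841 such windows of 27018 genes the median ratio was 0.384, with 97.5% of windows below Smc1b and 53.5% below Stra8. The Stra8 ratio was 0.267 in the 250 bases before the start alone. At Smc1b, part of those 250 bases lies in an annotated exon of Ribc2, and the stretch printed above has 113 bases. The E-box CACGTG, a palindrome, was found in 1 of the 5 windows, that of Mov10l1, and in 7.15% of all windows. The E2F motif GCGGGAA, searched on both strands and with no overlap with the E-box, was found in 1 of 5, that of Smc1b, and in 4.6% of all. In 41 windows of 34 other germline genes, listed further below, the median ratio was 0.694, and 17 windows (41.5%) held CACGTG and 10 (24.4%) GCGGGAA. These are matches of letters, not measured binding.

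**Figure D1:**
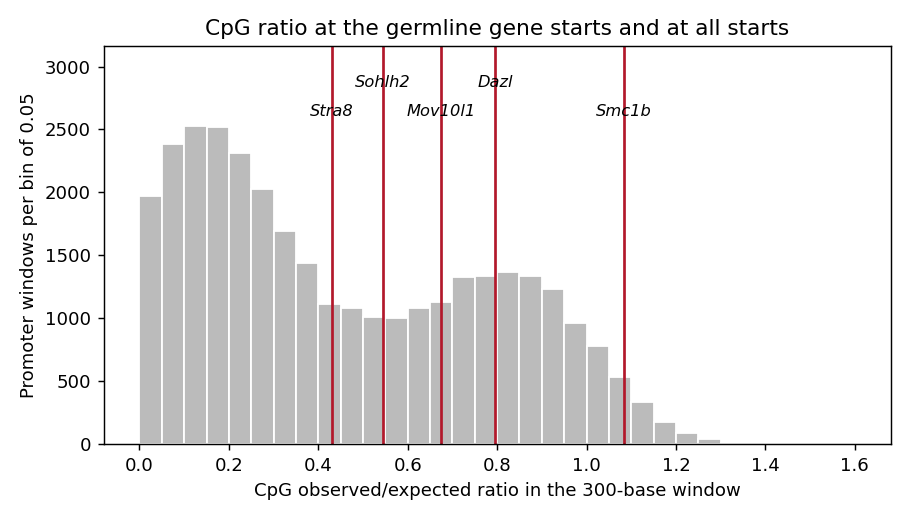
Number of promoter windows (y axis, all 32841 windows in bins of 0.05) by the ratio of observed to expected CpG in the window (x axis), with red lines at the 5 germline genes matched; the Stra8 window is that of the RefSeq start, 785 bases inside the GENCODE gene. Stra8 (0.43) and Sohlh2 (0.545) lie between the low-CpG and the high-CpG peak of all promoters, and Smc1b (1.083) lies at the upper end.

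Dazl and Sohlh2 were low in SL and A2iL and high in the 3 other conditions. Dazl (chromosome 17, 50279395 to 50293636, minus strand) encodes an RNA-binding protein needed for germ cell development. It had 1.27 and 1.01 TPM in SL, 1.74 and 1.21 in A2iL, 13.3 and 18.0 in 2iL, 8.96 and 10.2 in 2iL-F, and 10.01 and 9.51 in LCDM. Both libraries of 2iL lay above all others, those of LCDM and 2iL-F overlapped each other, and so did those of SL and A2iL. The mean was 13.7 times that of SL in 2iL, 8.54 times in LCDM and 8.40 times in 2iL-F, and the difference of log2(TPM + 1) from SL was 2.95 ± 0.15, 2.33 ± 0.15 and 2.31 ± 0.15 (limma SE, n = 2 libraries per condition). In A2iL it was 0.20 ± 0.15.

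Sohlh2 (chromosome 3, 55182028 to 55209957, plus strand), a basic helix-loop-helix factor of early spermatogonia and oocytes, differed from Dazl in its highest condition. It had 2.85 and 2.40 TPM in SL, 3.32 and 3.90 in A2iL, 14.4 and 17.4 in 2iL, 15.5 and 17.7 in 2iL-F, and 25.2 and 26.2 in LCDM. LCDM lay above every other library, 2iL and 2iL-F overlapped, and A2iL stood just above SL without overlap. The mean in LCDM, 25.7 ± 0.679 TPM, was 1.55 times that of 2iL-F and 9.79 times that of SL. On the log2 scale the difference from SL was 2.88 ± 0.11 in LCDM, 2.28 ± 0.11 in 2iL-F, 2.22 ± 0.11 in 2iL and 0.35 ± 0.11 in A2iL.

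Smc1b and Mov10l1, which lie on chromosome 15, were both highest in LCDM, next in 2iL and lowest in A2iL. Smc1b (85064689 to 85131964, minus strand) encodes the meiosis-specific SMC1 subunit of cohesin, the ring that holds sister chromatids together. Its levels were 0.493 and 0.523 TPM in SL, 0.140 and 0.293 in A2iL, 2.66 and 2.85 in 2iL, 1.10 and 1.45 in 2iL-F, and 6.39 and 6.80 in LCDM. The 5 conditions did not overlap, in the order LCDM, 2iL, 2iL-F, SL and A2iL. The LCDM mean of 6.60 ± 0.293 TPM was 2.39 times that of 2iL and 13.0 times that of SL. The differences from SL were 2.33 ± 0.11 in LCDM, 1.32 ± 0.11 in 2iL, 0.59 ± 0.11 in 2iL-F and -0.31 ± 0.11 in A2iL on the log2 scale. That scale understates the change of a gene this low, and with a pseudocount of 0.1 in place of 1 the LCDM difference was 3.46.

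Mov10l1 (88982909 to 89055152, plus strand) encodes an RNA helicase that feeds precursors into the piRNA pathway, the small RNA defence of germ cells against transposons. It had 1.31 and 1.45 TPM in SL, 0.597 and 0.983 in A2iL, 3.54 and 3.80 in 2iL, 1.07 and 1.15 in 2iL-F, and 6.83 and 6.90 in LCDM. Unlike Smc1b, it was lower in 2iL-F than in SL, by 0.17 ± 0.11 on the log2 scale, although the libraries did not overlap. The gap between 2iL-F and A2iL was 1.17 times the larger SD. LCDM had 1.87 times the 2iL mean and 4.98 times the SL mean (1.73 ± 0.11). Its paralog Mov10, which is expressed in body tissues, had a mean of 27.0 TPM in SL, 51.9 in A2iL, 84.7 in LCDM, 80.4 in 2iL-F and 102 in 2iL, so A2iL stood above SL for Mov10 and below it for Mov10l1.

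Stra8 (chromosome 6, 34920163 to 34939344, plus strand), which is induced by retinoic acid in germ cells and licenses entry into meiosis, was high in LCDM, intermediate in SL and low in the other 3 conditions. The libraries had 14.5 and 13.1 TPM in SL, 5.11 and 5.21 in 2iL, 3.09 and 3.09 in A2iL, 2.78 and 3.25 in 2iL-F, and 43.9 and 40.8 in LCDM. Only A2iL and 2iL-F overlapped, with means of 3.09 ± 0.00193 and 3.01 ± 0.332 TPM. The LCDM mean of 42.4 ± 2.17 TPM was 3.07 times that of SL (1.55 ± 0.08), 8.21 times that of 2iL and 14.1 times that of 2iL-F. The difference from SL was -1.26 ± 0.08 in 2iL, -1.85 ± 0.08 in A2iL and -1.88 ± 0.08 in 2iL-F. Stra8 thus stood below SL in the 2 conditions with PD0325901 and also in A2iL, which has none. Dazl and Sohlh2 stood above SL in the 2 conditions with PD0325901 and also in LCDM, which has none.

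Rhox6 (chromosome X, 37826910 to 37829857, plus strand) belongs to the X-linked cluster of reproductive homeobox genes, and it was high only in the libraries labelled 2iL. It had 44.9 and 44.7 TPM there, against 6.90 and 6.74 in 2iL-F, 5.51 and 4.97 in A2iL, 2.35 and 2.19 in SL, and 2.21 and 2.27 in LCDM. The 2iL mean was 19.7 times that of SL (3.81 ± 0.07) and 6.56 times that of 2iL-F, while SL and LCDM overlapped at 2.27 ± 0.111 and 2.24 ± 0.0410 TPM. Rhox6 was the 1 gene of the 6 that was not higher in LCDM than in SL. The cluster holds related copies, and beyond naming RSEM the sources used here do not say how reads shared between them were divided.

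**Figure D2:**
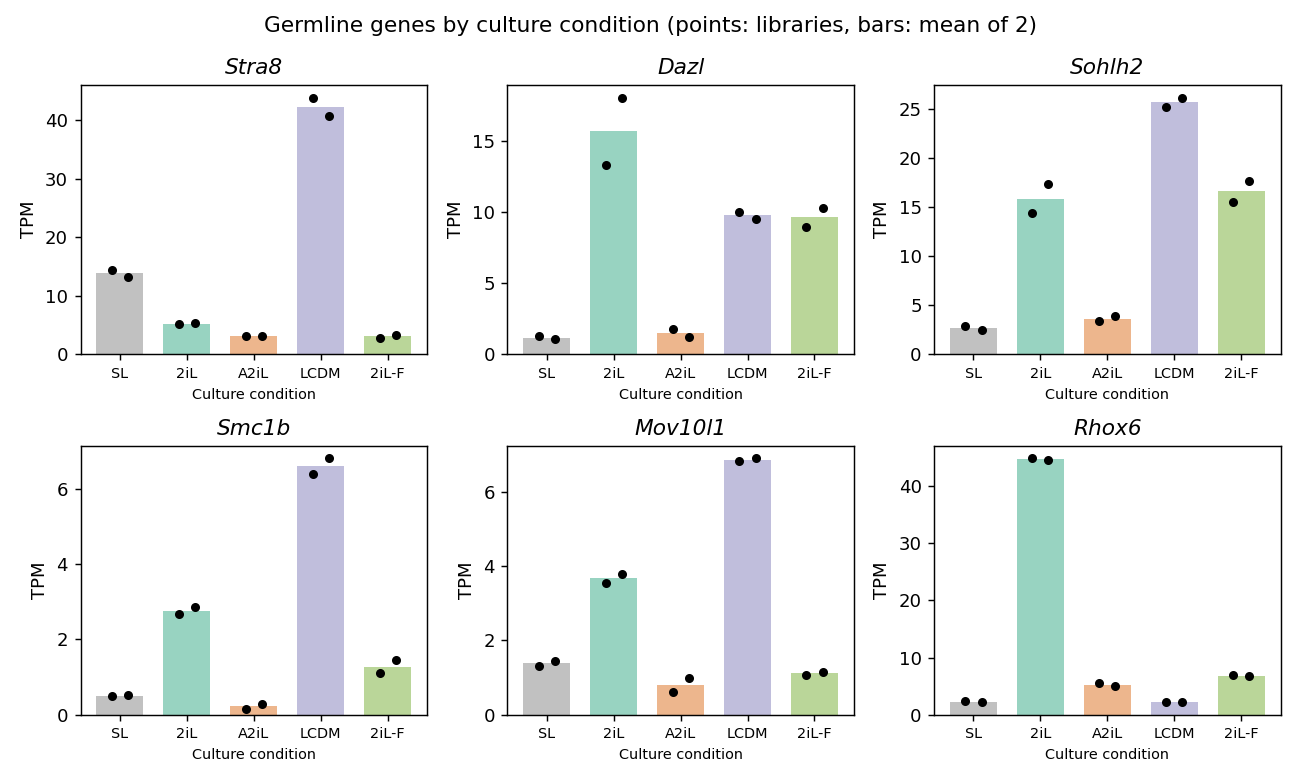
TPM (y axis, linear from 0, own scale per gene) of the 6 germline genes in the 5 culture conditions (x axis), with each library as a point and the mean of 2 libraries as a bar. LCDM has the highest bar for Stra8, Sohlh2, Smc1b and Mov10l1, and 2iL for Dazl and Rhox6.

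Set side by side, LCDM had 5 of the 6 genes above SL without overlap of libraries and 1 overlapping, where 41.9% of the 14578 lines tested stood above SL in this way. In 2iL, 5 stood above SL (40.7% of all lines tested) and 1 below (45.1%). In 2iL-F, 4 stood above (36.3%) and 2 below (47.8%). In A2iL, 2 stood above (33.0%), 3 below (46.7%) and Dazl overlapped. These comparisons share the SL libraries, and their values chose the genes, so nothing is read from the counts. Over the 10 libraries, Pearson's r of log2(TPM + 1) was 0.958 between Smc1b and Mov10l1, 0.935 between Dazl and Sohlh2, 0.07 between Stra8 and Dazl and -0.522 between Stra8 and Rhox6. These r describe 10 libraries that form 5 pairs of the same condition and share the scaling of the unit.

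The 2 conditions with the same medium, 2iL-F and 2iL, differed at most of these genes. In 2iL-F, 5 of the 6 genes were lower than in 2iL without overlap (40.8% of all lines tested), and Sohlh2 overlapped, with 16.6 ± 1.52 against 15.9 ± 2.10 TPM. The ratio of 2iL to 2iL-F was 6.56 for Rhox6, 3.31 for Mov10l1, 2.16 for Smc1b, 1.71 for Stra8 and 1.63 for Dazl. The summed fibroblast markers differed in the opposite direction, at 3.32 to 3.62 TPM in 2iL and 2085 to 2178 in 2iL-F, and their part in these differences was not tested. Pou5f1 had 1363 TPM in 2iL and 1160 in 2iL-F. Levels were also taken as a percentage of the Pou5f1 level of the same library, a measure chosen after seeing the data. Rhox6 had 3.28 ± 0.00293% in 2iL and 0.588 ± 5.62e-05% in 2iL-F (SD, n = 2). Dazl had 1.15 ± 0.249% and 0.829 ± 0.0915%, and Stra8, Smc1b and Mov10l1 were also lower in 2iL-F. Sohlh2 went the other way, with 1.16 ± 0.158% in 2iL and 1.43 ± 0.155% in 2iL-F.

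A2iL, with the Src inhibitor and no MEK inhibitor, was also compared with 2iL-F, from which it differs in the feeder label too, and with LCDM. A2iL and 2iL were not compared by a fit. Against 2iL-F, 5 of the 6 genes were lower without overlap (37.4% of all lines tested) and 0 higher (39.8%). Dazl had 6.51 times and Sohlh2 4.60 times its A2iL level in 2iL-F, and Stra8 overlapped. The A2iL libraries held 1113 to 1155 TPM of fibroblast markers, fewer than 2iL-F. Against A2iL, LCDM had 5 genes higher without overlap (45.9% of all lines tested) and Rhox6 lower (34.2%). The LCDM level was 30.4 times that of A2iL for Smc1b, 13.7 times for Stra8, 8.69 times for Mov10l1, 7.12 times for Sohlh2 and 6.62 times for Dazl. The Smc1b ratio rests on A2iL libraries of only 0.140 and 0.293 TPM. On the log2(TPM + 1) scale its difference was 2.64, below the 3.41 of Stra8. Fibroblast markers were lower in LCDM, at 223 to 232 TPM, and what part this has was not tested.

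Other germline genes of the kind that DNA methylation silences were counted from a list of 44, of which 22 stood on usable lines and 16 reached 1 TPM in at least 2 libraries and were tested. The list was drawn up with earlier results of these data known and is described by counts. Calls are limma's, with the Benjamini-Hochberg adjusted p over all lines tested under 0.05. A gene that reached 1 TPM only where it is high was bound to differ, so these 16 do not stand for all 44.

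In LCDM against SL, 12 of the 16 rose (32.2% of all lines tested) and 1 fell (33.7%, and 65.9% were called in either direction), with a median difference of 0.91 on the log2 scale, against 0.00 over the 7962 named lines tested. Tex14, a component of the bridges between germ cells, rose from 1.91 ± 0.447 to 16.5 ± 0.919 TPM (2.60 ± 0.14). Stk31, a germ cell kinase-like protein, rose by 1.43 ± 0.15, Dkkl1, an acrosomal protein, by 1.21 ± 0.15 and Hormad2, of the meiotic chromosome axis, by 1.20 ± 0.15. The 1 that fell, named after its values were seen, was Tdrd1, a piRNA pathway protein (-0.68 ± 0.11). Tdrd1 reached 1 TPM in the SL libraries alone, so it was bound to differ in each comparison with SL. Summed fibroblast markers were 223 to 232 TPM in LCDM and 975 to 1025 in SL, and their part was not tested.

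In each of the 3 other serum-free conditions, some genes of the list rose and some fell. In 2iL against SL, 7 rose (36.7% of all lines tested) and 6 fell (40.9%, with 77.7% called in either direction), and with quantile normalisation 8 rose and 3 fell. Dkkl1 rose from 0.960 ± 0.322 to 15.8 ± 2.70 TPM (3.10 ± 0.15), Tex14 by 2.51 ± 0.14, Dpep3, a testis dipeptidase, by 2.42 ± 0.13 and Hormad2 by 1.61 ± 0.15. Leaving out the SL library numbered 5 gave 7 that rose and 3 that fell. In 2iL-F against SL, 6 rose (28.1%) and 7 fell (37.3%, with 65.4% called in either direction). Tex14 rose by 2.04 ± 0.14 and Hormad2 by 1.67 ± 0.15. Ddx4, the germ cell helicase also called Vasa, fell from 13.4 ± 1.58 to 2.68 ± 0.391 TPM, and Dmrtb1, a regulator of the choice between mitosis and meiosis, fell by 1.68 on the log2 scale. Both were also among the 6 that fell in 2iL, Dmrtb1 at -1.54 ± 0.15 and Ddx4 at -0.93 ± 0.10, named there after their values were seen. Of the 11 fibroblast markers, 11 fell in 2iL, and 7 rose and 4 fell in 2iL-F, and their part in these counts was not tested. The list medians were 0.11 in 2iL and -0.15 in 2iL-F, against -0.04 and -0.08 over the named lines.

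In A2iL against SL, 5 rose (21.9% of all lines tested) and 6 fell (31.9%, with 53.8% called in either direction), with a median of -0.24 against -0.07 over the named lines. Tex14 rose by 1.67 ± 0.14 and Tex15, a meiotic gene, by 1.11 ± 0.13, while Dmrtb1 fell from 3.09 to 1.05 TPM. Tdrd1, tested through SL alone and so bound to differ, changed by -1.03 ± 0.11. Without the SL library numbered 5 the counts were 3 and 5, and without the A2iL library numbered 3 they were 3 and 7. Tex14 was thus called higher in each of the 4 serum-free conditions, all compared with the same SL libraries.

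The conditions were also compared directly. In LCDM against A2iL, 14 of the 16 were higher (31.1% of all lines tested) and 0 lower (22.9%, with 54.0% called in either direction). At an unadjusted p below 0.05 in limma, 15 were higher and 1 lower, and a fit that left out 2iL and 2iL-F called 14 higher and 1 lower. Hormad1 rose by 2.09 ± 0.16, Tex11, which takes part in meiotic recombination, by 1.41 ± 0.12, Sycp3, of the synaptonemal complex, by 1.39 ± 0.14 and Piwil2, a piRNA-binding protein, by 1.31 ± 0.13. In 2iL-F against 2iL, 0 were higher (29.2%), also at an unadjusted p below 0.05 in limma, and 8 were lower (32.5%, with 61.7% called in either direction), or 5 without the 2iL library numbered 5. Dpep3 (-1.85 ± 0.13), Dkkl1 (-1.58 ± 0.15), Ddx4 (-1.03 ± 0.10) and Piwil2 (-0.90 ± 0.13) were the largest of these. In A2iL against 2iL-F, 6 were higher (22.2%) and 4 lower (23.0%, with 45.3% called in either direction), with Hormad1 at -2.48 ± 0.16, Hormad2 at -1.18 ± 0.15, Ddx4 at 1.15 ± 0.10 and Piwil2 at 1.11 ± 0.13.

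**Figure D3:**
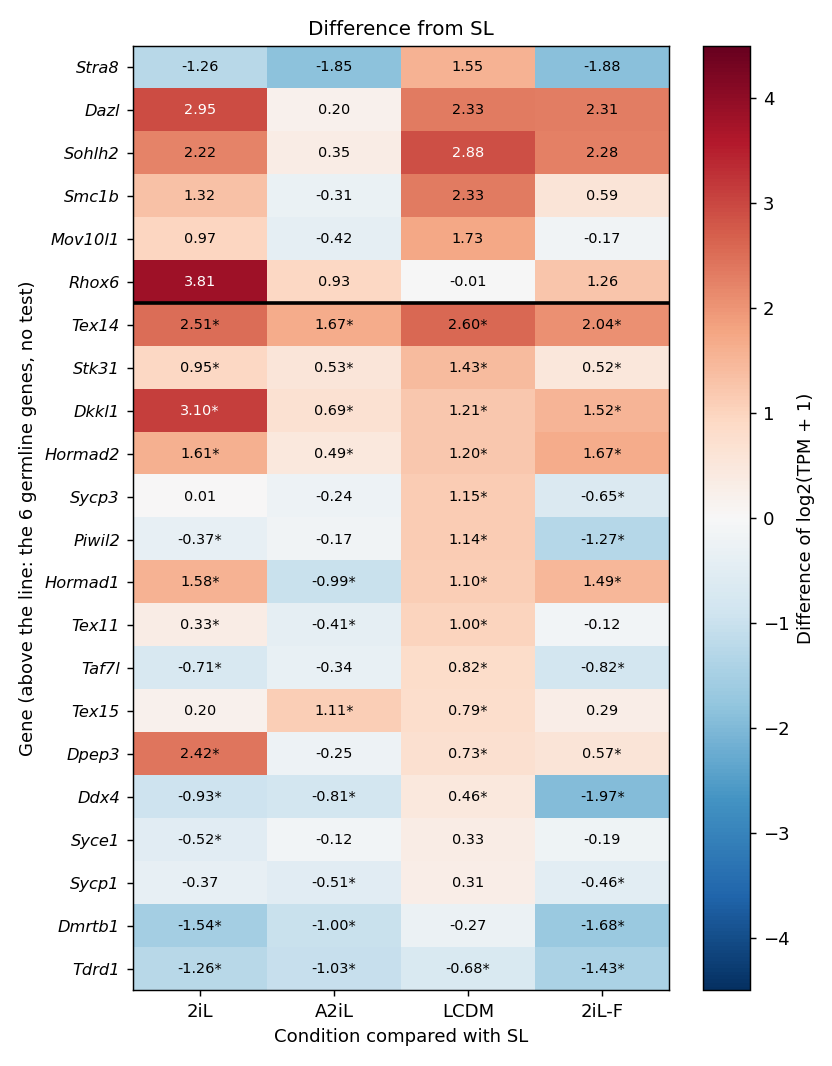
Difference of log2(TPM + 1) from SL (colour and printed value, red higher and blue lower) for the 6 germline genes above the black line, without a test, and 16 other germline genes below it, in 2iL, A2iL, LCDM and 2iL-F (x axis). A star marks an adjusted p below 0.05 in limma, and the LCDM column holds 12 positive and 1 negative starred values below the line.

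The de novo methylation genes were highest in SL and lowest in 2iL, and Uhrf1 was lowest in SL and highest in 2iL. Dnmt3a had 42.3 ± 0.530 TPM in SL, 18.4 ± 0.580 in LCDM, 10.99 ± 0.368 in A2iL, 3.48 ± 0.0517 in 2iL-F and 3.12 ± 0.0539 in 2iL. Dnmt3b had 216, 53.6, 96.9, 21.7 and 8.28 TPM in the same order of conditions, and Dnmt3l 104, 28.4, 39.5, 4.30 and 3.43. Uhrf1 rose in each serum-free condition, from 157 TPM in SL to 220 in A2iL, 318 in LCDM, 385 in 2iL-F and 400 in 2iL. Of 9 genes tested from a list on DNA methylation and its removal, 3 rose and 5 fell in LCDM against SL (65.9% of all lines tested were called in either direction), 3 and 6 in A2iL (53.8%), 3 and 5 in 2iL (77.7%), and 3 and 4 in 2iL-F (65.4%). The list also held Zfp57 and Trim28, and the demethylation genes Tet3 and Tdg. Tdg was called lower in each of these comparisons, and Tet3 in LCDM and A2iL, so the counts do not describe methylation genes alone. The part of feeder RNA in these levels was not tested.

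**Figure D4:**
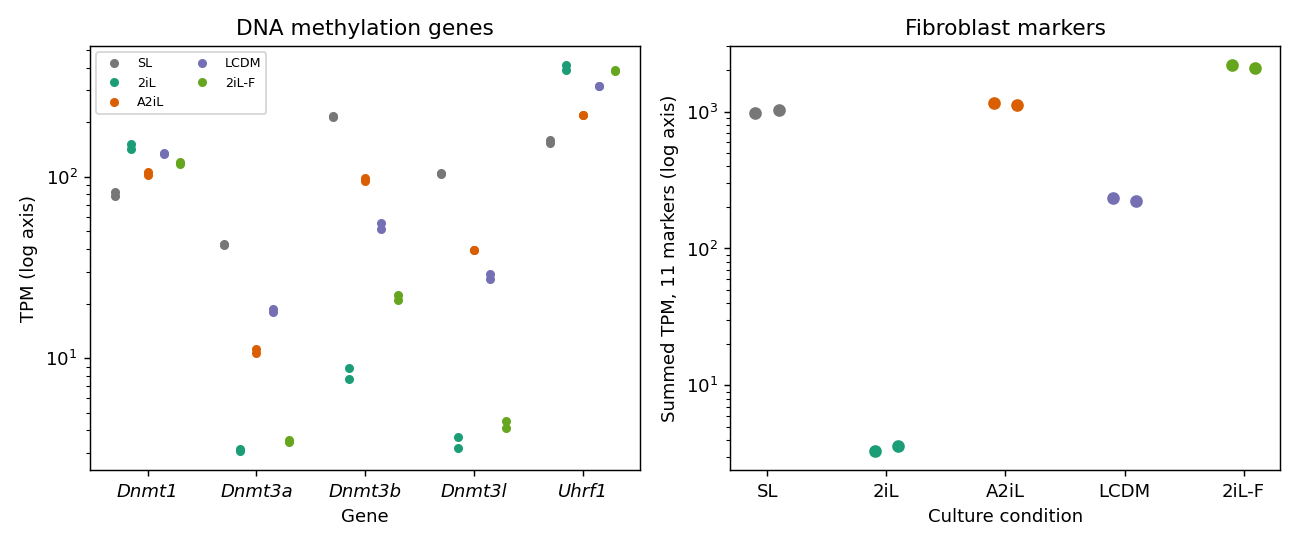
TPM of 5 DNA methylation genes (left, log axis) and summed TPM of 11 fibroblast markers (right, log axis) in each library, coloured by culture condition. Dnmt3a, Dnmt3b and Dnmt3l are highest in SL and lowest in 2iL, while the fibroblast markers lie at 3.32 to 3.62 TPM in 2iL and at 223 or more in every other library.

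Of the PRC1.6 list and other repressors of germline genes, 16 were tested. In LCDM against SL, 6 rose and 2 fell (65.9% of all lines tested were called in either direction), in 2iL 7 and 4 (77.7%), in 2iL-F 5 and 5 (65.4%), and in A2iL 4 and 4 (53.8%), so nothing particular to the list is read from these counts. Mga, L3mbtl2 and Pcgf6 did not pass the test in LCDM against SL, where Rnf2, the ubiquitin ligase subunit, rose by 0.31 ± 0.07. Mga was called higher in 2iL (0.34 ± 0.13) and in 2iL-F (0.39 ± 0.13). Mga, which binds the E-box, had 19.7 ± 0.489 TPM in SL and 20.6 ± 1.47 in LCDM, L3mbtl2 had 47.4 ± 0.222 and 50.5 ± 0.0904, and Pcgf6 had 58.3 ± 2.04 and 67.8 ± 4.32. The largest differences were those of Wdr5, a WD-repeat subunit shared with other chromatin complexes, which rose by 1.18 to 188 TPM in LCDM, and Yaf2, which fell by 1.30.

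By Pearson's r over the 10 libraries, among 6541 other named genes with at least 5 TPM in 1 condition, the genes most like Dazl were Tmem50b (r = 0.990), Ccnd3 (0.987) and Sumf2 (0.985). Those most like Sohlh2 were Gins1 (0.988), Cdc45 (0.980) and Anapc5 (0.980), and those most like Smc1b were Dpy30 (0.975), Tesc (0.971) and Ube2q2 (0.966). For Mov10l1 they were Mrps31, Ube2o and Mknk2 (0.975, 0.974 and 0.972), for Stra8 Srsf7, Mrpl22 and Stip1 (0.988, 0.985 and 0.983) and for Rhox6 Cln8, Rhbdd1 and Chrd (0.987, 0.986 and 0.986). None of these 18 genes is in the germline list, but only 22 genes of that list stood on usable lines, so nothing is read from this. The likeness is of shape and not of size, since Srsf7 ranged from 235 to 297 TPM while Stra8 ranged from 3.01 to 42.4.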

How the data were processed

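RNA of an embryonic stem cell line was measured by RNA-seq in 10 libraries. Per the labels' protocols, RNA was purified with Qiagen columns, and NEBNext Ultra reagents were used to build the libraries. The deposited values are TPM; Bowtie2, RSEM, mm10, DESeq2 and R 3.4.2 are named in the submitters' processing notes, with no other versions. The listed values summed to 709982 to 729571 TPM per library. TPM keep no depth, so no precision from counting can be given.

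Whether symbols stand beside their own values was checked with genes of known breadth of expression. In the upper part of the table, 97.9% of 235 broadly expressed and 8.04% of 112 tissue-restricted genes had at least 5 TPM (area under the curve 0.990). From line 10011 on, the area was 0.577 for a symbol's own line and 0.958 for the line below, so genes are named only from the first part. Within 500 lines of each of the 6 genes, at most 1 broadly expressed gene was under 5 TPM. Of the tissue-restricted genes there, 2 of 15 around Stra8 and 2 of 9 around Smc1b reached 5 TPM, and 0 around the others.

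Log2(TPM + 1) was fitted with limma 3.58.1 in R 4.3.3 (eBayes with trend, 5 condition means, no covariate, 5 residual degrees of freedom). The 14578 lines with 1 TPM or more in at least 2 libraries were tested in 7 comparisons, with two-sided p-values adjusted by Benjamini-Hochberg within each. The fit was tested on simulated data. SE are limma's moderated ones, and SD are over 2 libraries. The 6 genes and all gene lists were chosen with earlier results of these data known. Named list genes are up to 4 called ones per comparison with the largest difference and at least 1 TPM in the higher group, otherwise the 2 most abundant; paralogs, methylation genes and PRC1.6 genes could always be named. The genes most alike are the 3 with the highest r. Gene coordinates are GENCODE vM21 (mm10). Other settings tried were each library left out, a replicate block, the 4 compared libraries alone, 2 other scalings, a 5 TPM filter or none, and a pseudocount of 0.1. Tables were made with Python 3.11.15, pandas 2.3.3 and matplotlib 3.10.9.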

Additional observations from a re-analysis of the deposited data

How the results depend on the processing

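Of 774 values of the 6 genes under alternatives, 660 moved by less than 1 SD between libraries, 114 moved more and 0 turned sign where the libraries were apart. Most of the larger moves came with a pseudocount of 0.1 (35 of 42) and after division by Pou5f1 (31 of 42), the latter chosen after seeing the data, as was a fit that left out 2iL and 2iL-F (0 of 18). Division by Pou5f1 shifted the median of all genes by -0.41 on the log2 scale in 2iL against SL. For the other germline genes, a filter of 5 TPM, which tests fewer genes, left 8 called in 2iL against SL, 6 in A2iL against SL (4 higher and 2 lower), 8 in 2iL-F against SL (5 higher and 3 lower) and 8 in LCDM against A2iL. Leaving out each library in turn gave 10 to 14 called in 2iL, 8 to 11 in A2iL, 13 to 13 in LCDM and 11 to 14 in 2iL-F, each against SL, 5 to 8 in 2iL-F against 2iL, 8 to 12 in A2iL against 2iL-F and 12 to 16 in LCDM against A2iL. For genes changed in all, these ranges were 10431 to 11173 in 2iL, 6258 to 8511 in A2iL, 8431 to 10151 in LCDM and 8325 to 10041 in 2iL-F against SL, 7657 to 8821 in 2iL-F against 2iL, 5039 to 7413 in A2iL against 2iL-F and 6300 to 8608 in LCDM against A2iL. The replicate numbers 3 and 5 are not explained in the labels. Deviations of same-numbered libraries correlated at -0.05 to 0.075 across genes in the 7 comparisons, and with the replicate block 13, 11, 13, 13, 8, 9 and 14 other germline genes were called in the comparisons in the order above, so the numbers were not taken as pairs.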

Other observations

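Meiotic genes outside the germline list were counted separately, with 15 of 35 tested. In LCDM against SL, 10 rose (32.2% of all lines tested) and 0 fell (33.7%, and 0 of the list also at an unadjusted p below 0.05 in limma). Terb2 and Msh5 entered the test through the LCDM libraries, where they are high, and so were bound to differ, and the count is no support for a shift of the list. Terb2, of the telomere attachment complex, rose by 1.53 ± 0.12, Hsf2bp, a recombination protein, by 1.37 ± 0.07, Dmc1, the meiotic recombinase, from 5.40 ± 0.0420 to 15.5 ± 1.68 TPM, and the meiotic cohesin subunit Rec8 from 6.54 ± 0.543 to 14.8 ± 0.0785 TPM. In 2iL against SL, 7 rose (36.7% of all lines tested) and 4 fell (40.9%), in 2iL-F 6 (28.1%) and 3 (37.3%), and in A2iL 5 (21.9%) and 3 (31.9%). The shares over all lines tested apply to the lists that follow as well. Of the 11 fibroblast markers, 11 fell in 2iL, 10 fell in LCDM, 4 rose and 4 fell in A2iL, and 7 rose and 4 fell in 2iL-F, each against SL, and their part in any of these counts was not tested. Of 6 piRNA pathway genes tested, 3 rose and 3 fell in 2iL, and 2 rose and 3 fell in LCDM. Gtsf1, a piRNA cofactor, had 1.18 ± 0.779 TPM in SL, 8.48 ± 0.676 in 2iL, 3.396 ± 0.0439 in LCDM, 3.24 ± 0.127 in 2iL-F and 0.786 ± 0.275 in A2iL. Other genes of this list fell. Tdrd7 had 6.83 TPM in SL, 0.631 in 2iL and 1.20 in LCDM, and Ddx25 had 3.28, 0.683 and 1.37.

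Of 9 genes tested from a list for early germ cells, with genes that stem cells also express, 5 were higher (36.7% of all lines tested) and 4 lower (40.9%) in 2iL against SL, 4 and 4 in LCDM (32.2% and 33.7%), 6 and 2 in 2iL-F, and 5 and 1 in A2iL. The 9 include Kitl, the gene of the ligand stem cell factor, which was called lower in 2iL, LCDM and 2iL-F. Kit, the receptor of stem cell factor, rose from 5.51 TPM in SL to 60.1 in 2iL, 63.3 in 2iL-F, 36.9 in LCDM and 18.1 in A2iL, and Tfap2c from 23.5 to 118, 77.7, 72.4 and 58.7. In contrast, Itgb3 fell from 8.43 TPM to 2.65, 3.03, 2.01 and 3.29 in the same order. Ifitm3 fell from 826 TPM in SL to 584 in 2iL and 370 in LCDM, and rose to 1124 in 2iL-F and 1177 in A2iL. Of 11 tested genes of retinoic acid response, synthesis and transport, 8 fell (40.9% of all lines tested) and 1 rose in 2iL, 8 fell (33.7%) and 0 rose in LCDM (0 also at an unadjusted p below 0.05 in limma), 7 fell (31.9%) and 1 rose in A2iL, and 6 fell (37.3%) and 2 rose in 2iL-F. Hoxb1 entered the test through the SL libraries alone, where it is high, and so was bound to differ from SL. The counts are therefore no support for a shift of the list. Summed fibroblast markers were 975 to 1025 TPM in SL and lower in 2iL and LCDM. Rarg, a retinoic acid receptor gene, had 81.4 TPM in SL, 41.8 in LCDM, 33.7 in A2iL, 15.2 in 2iL-F and 8.39 in 2iL. Other genes of the list went the opposite way, and all those called higher than in SL are named here. Crabp1 had 212 TPM in SL and 647 in A2iL, and was called lower in 2iL, LCDM and 2iL-F. Aldh1a3 had 0.489 TPM in SL, 6.21 in 2iL and 3.47 in 2iL-F. Aldh1a2 was higher in 2iL-F, by 1.41 on the log2 scale. Summed primitive endoderm markers (6 on usable lines) were 26.9 to 55.9 TPM and trophoblast markers (7) 11.2 to 15.8 TPM over the 10 libraries. Of 8 markers of 2-cell-like cells, 0 stood on usable lines.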
